A study of Mus musculus with 20 samples.

Results

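Enhancers that lie more than 100 kb from every protein-coding transcript start were examined in mouse Lin- bone marrow cells, the cells left after removal of mature blood lineages, in 4 genotypes. The H3K27ac peak lists of the 4 genotypes were merged into 35252 regions, of which 34536 lie on autosomes. Of these, 1737 were more than 100 kb from every coding start of the GENCODE annotation of mm10, and the 1449 that overlapped an H3K4me1 peak of at least 1 genotype are described here as far enhancers. All 4 groups carried floxed *Ep300* alleles and received poly(I:C) on a C57BL/6 background, with both sexes used. WT mice were *Ep300* fl/fl without Cre. Mice called Ep300-deleted here (*Ep300*Δ/Δ) were Mx1-Cre;*Ep300* fl/fl, and those called Tet2-null (*Tet2*-/-) were *Ep300* fl/fl;*Tet2*-/-. Those called double-deficient (*Ep300*Δ/Δ*Tet2*-/-) were Mx1-Cre;*Ep300* fl/fl;*Tet2*-/-. The labels name the groups WT, p300 Knockout, Tet2 Knockout and, for the last, p300 Tet2 Knockout. Mx1-Cre is switched on by interferon and also acts in tissues other than blood. Each genotype and mark was represented by 1 library, from 5 μg of chromatin, so no spread between mice was available and no *P* values were computed. How many mice were pooled for a library is not given in the sources used here.

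p300, the product of *Ep300*, acetylates histone H3 at K27 at active enhancers and promoters. H3K4me1 marks enhancers whether or not they are acetylated, H3K4me3 marks mainly promoters, and TET2 oxidizes methylcytosine in DNA. Enhancers act on promoters by looping across the intervening chromatin, and several regulators of blood formation, *Myc* among them, are known to depend on enhancers far from the gene. A far enhancer was scored as present in a genotype when a deposited peak of that list overlapped it by at least 1 bp, as lost when present in the first genotype of a comparison only, and as gained when present in the second only. Strength is the fold enrichment over the H3 library that the authors deposited for the strongest overlapping peak. It depends on how well each precipitation worked, so it was used to rank peaks within a list and is given side by side across lists. The strongest region of a gap or gene is the one with the highest fold in any list, which picks a region to describe and does not rank the lists. Intervals are exact 95% Clopper-Pearson intervals, or exact Poisson intervals for densities. They cover counting error only and treat neighboring regions as independent.

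The H3K27ac lists held 29659 peaks in WT, 22727 in Ep300-deleted, 24539 in Tet2-null, and 18327 in double-deficient cells, and the sequencing depth behind them is unknown. Such a difference in list length alone changes how many regions count as lost or gained. The start of each of 8 blood progenitor genes (*Ptprc*, *Kit*, *Cd34*, *Spi1*, *Runx1*, *Mpo*, *Myb*, and *Lmo2*) was acetylated in WT, Ep300-deleted, and double-deficient cells, and 7 of 8 in Tet2-null cells, where *Cd34* had no peak. Of 8 genes of mature blood cells, at most 1 was acetylated in any list. Of 8 genes of other tissues, 2 were acetylated in 3 of the lists and 1 in double-deficient cells, and *Pecam1* was in all 4. The peak lists cannot show the deletion of *Ep300* or of *Tet2* itself. In the paper, p300 loss in *Tet2*-deficient mice raised the share of stem and progenitor cells among Lin- cells. Differences that come with genotype and with cell composition therefore cannot be told apart in these lists.

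The DNA at the summits of far enhancers was mostly poor in CpG, with a median of 3 CpG dinucleotides in the 201 bases centered on the summit of the strongest H3K27ac peak. The windows below were picked for strength and not to show that range, and all but the fourth hold more CpG than the median. Each CpG is in capitals, on the plus strand of mm10 and read from the RefSeq FASTA of GRCm38. The first is the strongest far enhancer of the WT list, in an intron of *Arid1b*, and holds 14 CpG. The second, between *Klf14* and *Mkln1*, and the third, far downstream of *Myc*, were acetylated in all 4 genotypes. The fourth is the strongest WT far enhancer lost in Ep300-deleted cells, which lies near *Tent5a* and holds 1 CpG. The fifth, near *Ercc6l2*, is the strongest of Tet2-null cells lost in double-deficient cells. The sixth is the strongest gained in Ep300-deleted cells, again between *Klf14* and *Mkln1*.
*Arid1b* intron, chr17:5189940-5190140: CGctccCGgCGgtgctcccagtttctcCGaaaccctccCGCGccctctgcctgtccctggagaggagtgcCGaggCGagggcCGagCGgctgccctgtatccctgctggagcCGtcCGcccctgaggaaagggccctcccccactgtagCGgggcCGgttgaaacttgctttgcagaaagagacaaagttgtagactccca
*Klf14* to *Mkln1*, chr6:31125914-31126114: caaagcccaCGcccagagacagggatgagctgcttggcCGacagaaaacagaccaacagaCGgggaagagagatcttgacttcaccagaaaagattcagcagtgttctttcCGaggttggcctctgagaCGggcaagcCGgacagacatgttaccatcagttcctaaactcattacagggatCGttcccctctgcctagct
*Myc* to *Gsdmc*, chr15:63704682-63704882: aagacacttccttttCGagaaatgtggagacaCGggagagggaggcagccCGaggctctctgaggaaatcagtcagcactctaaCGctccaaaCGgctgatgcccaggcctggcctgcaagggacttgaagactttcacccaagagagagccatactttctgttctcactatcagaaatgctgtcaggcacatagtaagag
*Tent5a* to *Ibtk*, chr9:85496790-85496990: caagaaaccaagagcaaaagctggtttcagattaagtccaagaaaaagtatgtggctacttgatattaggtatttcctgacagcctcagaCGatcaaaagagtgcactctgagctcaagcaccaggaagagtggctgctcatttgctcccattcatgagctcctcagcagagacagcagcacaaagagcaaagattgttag
*Ercc6l2* to *Hsd17b3*, chr13:63917282-63917482: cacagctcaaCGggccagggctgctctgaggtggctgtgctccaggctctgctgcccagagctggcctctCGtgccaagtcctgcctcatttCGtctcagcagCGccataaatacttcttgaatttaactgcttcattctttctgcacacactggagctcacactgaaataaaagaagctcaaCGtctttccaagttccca
*Klf14* to *Mkln1*, gained, chr6:31176624-31176824: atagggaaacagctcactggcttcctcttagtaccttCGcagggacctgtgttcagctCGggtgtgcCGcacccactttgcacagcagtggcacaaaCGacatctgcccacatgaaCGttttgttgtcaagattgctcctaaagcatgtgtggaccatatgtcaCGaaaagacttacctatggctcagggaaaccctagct

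The same 201-base windows were read on both strands for 9 short letter strings that hematopoietic factors are known to bind, none of which contains another, though matches of different strings may overlap. The ETS string GAGGAAGT was found in 29 of 1449 far enhancers, or 2.0%, beside 2.11% of the 14375 H3K4me1-marked regions 3 to 100 kb from a coding start, called near enhancers below. The RUNX string TGTGGTT was found in 4.07% of far and 4.84% of near enhancers, the GATA string AGATAAG in 2.48% and 2.32%, the AP-1 string TGANTCA in 5.11% and 6.25%, and the CTCF core AGGGGGC in 3.86% and 3.33%. The MYB string TAACNG was found in 17.8% and 18.4%, and the E-box CAGATG in 16.7% and 16.4%. The CEBP string TTGCGCAA was in 0 of the far enhancers, which allows a share of up to 0.254%, and in 3 of the near ones, and the string TTGCATCA in 5 far enhancers and 0.376% of the near ones. At least 1 string was present in 43.8% of far enhancers (41.2 to 46.4) and 43.9% of near ones (43.0 to 44.7), against 38.9% of all merged autosomal regions. A match is a description of the letters and not a bound site. The strongest far enhancers with a RUNX, ETS, GATA, or AP-1 string are shown with that string in capitals, the ETS string as its complement reads on the plus strand. Of the genes that flank them, *Dusp6* encodes a phosphatase of the ERK pathway, *Bcl2l11* the proapoptotic BIM, and *Btg1* an antiproliferative protein of lymphoid and myeloid cells.
*Dusp6* to *Csl*, RUNX, chr10:99460159-99460359: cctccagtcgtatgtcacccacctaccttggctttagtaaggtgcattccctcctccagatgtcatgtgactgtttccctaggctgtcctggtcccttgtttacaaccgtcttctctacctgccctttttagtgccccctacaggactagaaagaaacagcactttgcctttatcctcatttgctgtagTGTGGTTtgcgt
*Bcl2l11* to *Spdye4c*, ETS, chr2:128428910-128429110: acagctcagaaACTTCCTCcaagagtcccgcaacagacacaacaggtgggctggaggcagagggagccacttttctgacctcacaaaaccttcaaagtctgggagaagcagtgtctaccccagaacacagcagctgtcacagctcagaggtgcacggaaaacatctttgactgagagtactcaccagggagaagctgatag
*Pkn2* to *Lmo4*, GATA, chr3:143016536-143016736: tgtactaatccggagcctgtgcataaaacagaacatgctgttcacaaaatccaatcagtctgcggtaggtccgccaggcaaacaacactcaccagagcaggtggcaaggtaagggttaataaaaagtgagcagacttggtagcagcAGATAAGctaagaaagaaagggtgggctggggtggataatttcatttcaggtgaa
*Gm5426* to *Btg1*, AP-1, chr10:96373855-96374055: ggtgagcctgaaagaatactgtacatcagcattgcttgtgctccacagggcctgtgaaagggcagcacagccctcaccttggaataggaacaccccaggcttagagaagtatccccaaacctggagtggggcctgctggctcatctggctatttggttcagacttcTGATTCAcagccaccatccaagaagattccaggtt

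Of these 4, the regions with the RUNX, ETS, and AP-1 strings carried a peak in every genotype. The RUNX region, between *Dusp6* and *Csl*, had a fold of 21.2 in WT, 11.3 in Ep300-deleted, 4.65 in Tet2-null, and 8.66 in double-deficient cells. The ETS region, between *Bcl2l11* and *Spdye4c*, had a fold of 21.2, 9.20, 20.8, and 15.7 in the same order. The AP-1 region, between *Gm5426* and *Btg1*, was at 15.8, 9.64, 7.95, and 7.11. The GATA region, between *Pkn2* and *Lmo4*, was at 12.8, 5.36, and 9.46 in WT, Ep300-deleted, and Tet2-null cells and had no peak in double-deficient cells.

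Far enhancers differed widely in presence between the lists. WT cells held 1062 of 1449 (73.3%, 70.9 to 75.6), Ep300-deleted cells 484 (33.4%, 31 to 35.9), Tet2-null cells 727 (50.2%, 47.6 to 52.8), and double-deficient cells 415 (28.6%, 26.3 to 31). Over all merged autosomal regions the shares were 79.2% in WT, 54.2% in Ep300-deleted, 63.7% in Tet2-null, and 47.0% in double-deficient cells. Among near enhancers they were 75.9%, 38%, 51.2%, and 30.1%. With lists of equal length, the 18327 strongest peaks of each, 798 far enhancers remained, of which WT cells held 60.3%, Ep300-deleted cells 39%, Tet2-null cells 51.9%, and double-deficient cells 52.3%, and with peaks of a −log10 *q* of at least 5 the shares were 77.6%, 22.4%, 53.8%, and 31.9%. Under both, double-deficient cells stood above Ep300-deleted cells. The same order held among near enhancers, at 52.5% and 44.9% with equal lists and 33.1% and 25.3% at the *q* limit. Over all merged autosomal regions the shares were 67.9% and 64.0%, and 53.6% and 47.6%, so this order was not particular to far enhancers. H3K4me1, part of the selection, marked 88.5% of the far enhancers in WT, 82.0% in Ep300-deleted, 88.3% in Tet2-null, and 84.7% in double-deficient cells. The shares over all merged autosomal regions were 71.4%, 70.2%, 69.1%, and 70.6%. It was present in all 4 genotypes at 991 (68.4%, 65.9 to 70.8), compared with 75.9% of near enhancers (75.2 to 76.6) and 55.9% of all merged autosomal regions.

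Of the 1449 far enhancers, 780 (53.8%) had H3K27ac in 1 genotype, 309 in 2, 150 in 3, and 210 (14.5%, 12.7 to 16.4) in all 4. The share in 1 genotype was 50.9% among near enhancers and 37.9% among all merged autosomal regions. The share in all 4 was 16.9% (16.3 to 17.5) among near enhancers and 35.3% among all merged autosomal regions, which include promoters. The largest single pattern was WT alone, with 453 regions, followed by all 4 genotypes, Tet2-null alone with 196, and WT with Tet2-null with 148. Regions of WT alone were weak, with a median fold of 4.60, and narrow, with a median width of 335 bp, whereas those of all 4 genotypes had a median fold of 10.7 in their strongest list and a median width of 854 bp. Only 69 were found in Ep300-deleted cells alone and 62 in double-deficient cells alone.

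**Figure D1:**
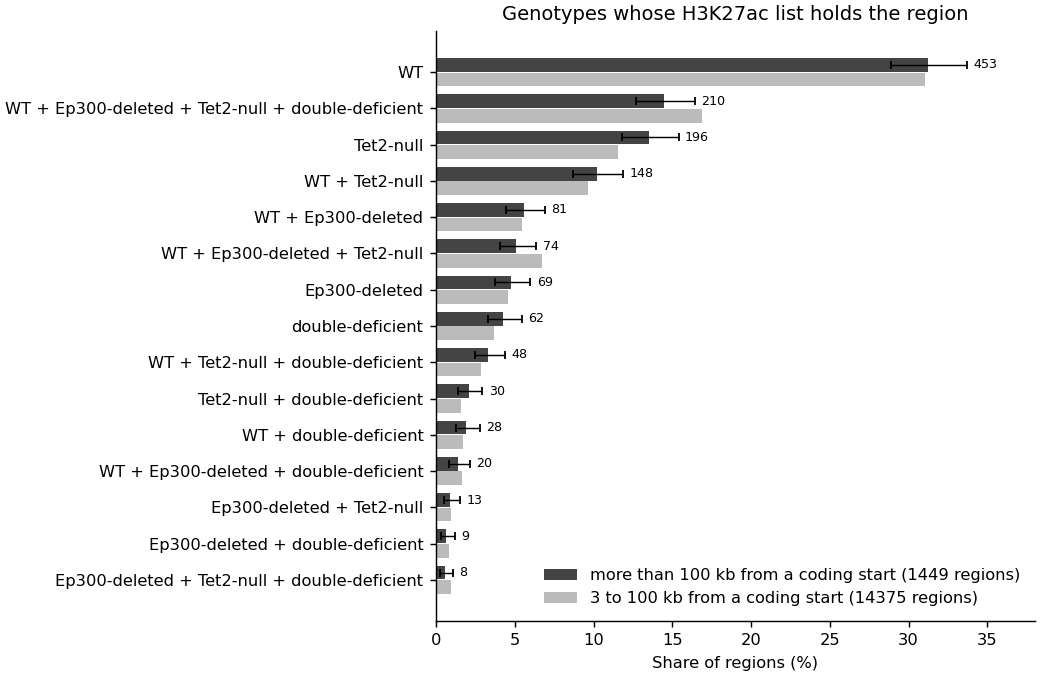
Share of regions (%) with each combination of genotypes whose H3K27ac list holds the region, for 1449 far enhancers (dark bars, counts printed, whiskers are 95% Clopper-Pearson intervals) and 14375 near enhancers (light bars). WT alone is the most frequent pattern in both, and far enhancers of all 4 genotypes make up 14.5%.

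Loss of p300 in an otherwise WT background went with the absence of most far enhancers from the H3K27ac list. Of 1062 far enhancers of WT cells, 677 had no peak in Ep300-deleted cells (63.7%, 60.8 to 66.6), against a background of 39.9% over all merged autosomal regions and 59.6% (58.6 to 60.5) of near enhancers. Conversely, 99 of 484 far enhancers of Ep300-deleted cells were gained (20.5%, 16.9 to 24.3), against a background of 12.2% and 19.2% of near enhancers. In Tet2-null cells, 431 of 727 far enhancers were lost on p300 loss (59.3%, 55.6 to 62.9), against a background of 37.0% and 56.4% (55.3 to 57.6) of near enhancers. Of 415 far enhancers of double-deficient cells, 119 were gained (28.7%, 24.4 to 33.3), against a background of 14.6% and 25.9% of near enhancers. For the share lost, the interval of far enhancers lay above that of near enhancers in the WT background, and the intervals overlapped in the Tet2-null background. In the WT background they also overlapped with lists of equal length (46.2 to 55.3 and 44.5 to 47.3) and with peaks of a −log10 *q* of at least 5 (69.6 to 76.3 and 69.3 to 71.4), and without H3K4me3 the shares were 73.5% and 73.2%.

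These counts depended on list length. When each list was cut to its 18327 strongest peaks, 244 of 481 far enhancers of WT cells were lost in Ep300-deleted cells (50.7%) and 74 of 311 were gained (23.8%). In the Tet2-null comparison the same cut left 164 of 414 lost (39.6%) and 167 of 417 gained (40.0%), so that the excess of losses over gains was no longer seen there. The near enhancers then lost 45.9% and 39.4%, respectively. Over all merged autosomal regions at this cut, 24.2% were lost and 16.3% gained from WT to Ep300-deleted cells, and 22.7% and 21.6% from Tet2-null to double-deficient cells. The Ep300-deleted list also held more weak calls. Of its far enhancer peaks, 12.4% had a *q* above 0.05, compared with 1.88% in WT, 1.38% in Tet2-null, and 1.69% in double-deficient cells. With only peaks of a −log10 *q* of at least 5, 73.1% of WT far enhancers were lost in Ep300-deleted cells and 14 of 205 were gained, and in the Tet2-null comparison 55.3% were lost and 72 of 292 gained. Over all merged autosomal regions at this limit, 45.5% were lost and 4.17% gained from WT to Ep300-deleted cells, and 32.8% and 11.4% from Tet2-null to double-deficient cells. Near enhancers then lost 70.4% (69.3 to 71.4) and 53.8%.

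As over all merged autosomal regions, retained far enhancers had higher folds than lost ones. In WT cells the median fold was 7.53 at the 385 far enhancers retained in Ep300-deleted cells and 4.92 at the 677 lost. In Tet2-null cells it was 7.11 at the 296 retained in double-deficient cells and 4.72 at the 431 lost. The medians over all merged autosomal regions were 9.89 and 4.81 in WT and 9.47 and 4.63 in Tet2-null cells. The whole WT list was cut into 4 equal parts by fold. In the strongest part 10 of 89 far enhancers were lost (11.2%), 110 of 270 in the next (40.7%), 250 of 347 in the next (72.0%), and 307 of 356 in the weakest (86.2%). The corresponding shares in the Tet2-null comparison were 7.94%, 32.9%, 68.7%, and 80.9%. Near enhancers gave 5.76%, 38.4%, 67.0%, and 82.0% in the WT list and 4.11%, 31.8%, 63.7%, and 77.8% in the Tet2-null list. All merged autosomal regions gave 1.54%, 24.5%, 57.8%, and 76.8%, and 1.79%, 21.3%, 54.3%, and 72.7%. At retained far enhancers the fold was lower in Ep300-deleted than in WT cells at 313 of 385 regions (81.3%), with medians of 5.12 and 7.53. In the Tet2-null comparison it was lower in double-deficient than in Tet2-null cells at 175 of 296 (59.1%), with medians of 6.07 and 7.11. Near enhancers gave 81.3% and 60.4%, so neither share was particular to distance.

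A peak of H3K4me3 in at least 1 list overlapped 443 of 1449 far enhancers (30.6%), compared with 35% of near enhancers and 61.9% of all merged autosomal regions, and 106 of these lay within 3 kb of an annotated start of another transcript type. Far enhancers with H3K4me3 were acetylated in all 4 genotypes in 31.6% of cases (27.3 to 36.2), and those without in 6.96% (5.46 to 8.71), beside 35.2% and 7.03% of near enhancers. Loss from WT to Ep300-deleted cells was 41.5% (36.1 to 47.1) with H3K4me3 and 73.5% (70.1 to 76.6) without. Loss from Tet2-null to double-deficient cells was 39.8% (34.4 to 45.5) and 74.1% (69.6 to 78.3). Near enhancers were lost in 36.0% and 36.6% of cases with H3K4me3 and in 73.2% and 74.2% without it. Over all merged autosomal regions the shares were 21.9% and 24.0% with it and 74.7% and 76.9% without, so the difference with H3K4me3 was general and wider there.

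Shares lost with and without H3K4me3 were also counted within each of the 4 parts of the list. Folds still range within a part, and whether strength accounts for the difference was not tested. In the strongest of the 4 parts of the WT list, none of 55 far enhancers with H3K4me3 and 10 of 34 without (29.4%) were lost in Ep300-deleted cells. In the next part the shares were 26.4% of 110 and 50.6% of 160, and in the next 60.9% of 87 and 75.8% of 260. In the weakest they were 73.2% of 71 and 89.5% of 285. Near enhancers gave 3.01% and 13.9% in the strongest part and 67.1% and 86.8% in the weakest. All merged autosomal regions gave 0.765% and 16.5%, and 60.6% and 87.8%, so the difference was not particular to far enhancers. In the Tet2-null comparison they ran from 2 of 48 (4.17%) and 3 of 15 in the strongest part to 65.8% of 76 and 87.4% of 175 in the weakest.

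**Figure D2:**
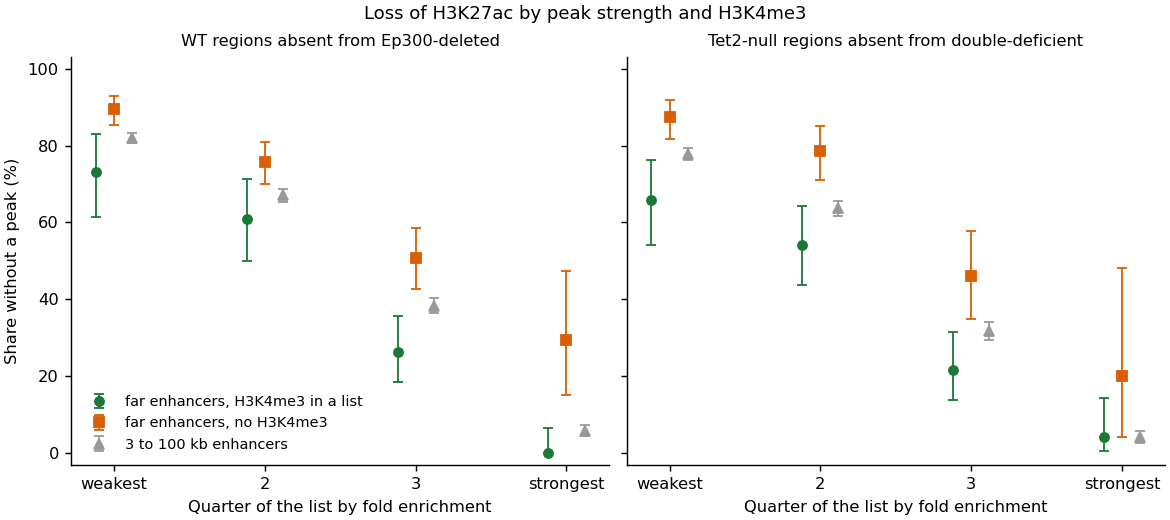
Share of regions (%) without an H3K27ac peak after p300 loss, in 4 equal parts of the WT list (left) or Tet2-null list (right) ranked by fold enrichment, with 95% Clopper-Pearson intervals. In each part the far enhancers without H3K4me3 (squares) lie above those with it (circles), and near enhancers (triangles) lie between them except in the strongest Tet2-null part, where 4.11% is just below 4.17%.

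H3K4me1 in at least 1 genotype was part of how far enhancers were chosen, and lost regions lack H3K27ac by definition. Of the 677 far enhancers lost from WT to Ep300-deleted cells, 631 had H3K4me1 in WT cells (93.2%) and 537 in Ep300-deleted cells (79.3%, 76.1 to 82.3). Of the 385 retained, 354 had it in Ep300-deleted cells (91.9%). Of the 431 lost from Tet2-null to double-deficient cells, 401 had H3K4me1 in Tet2-null cells and 361 in double-deficient cells (83.8%, 79.9 to 87.1), and 282 of the 296 retained had it in double-deficient cells (95.3%). At near enhancers H3K4me1 was present at 83.5% and 89.9% of the lost and 94.7% and 95.9% of the retained regions after p300 loss. All merged autosomal regions, which include promoters, had the opposite order, with 74.5% and 73.2% of those lost and 68.7% and 66% of those retained.

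Loss of TET2 by itself also went with a different set of far enhancers. From WT to Tet2-null cells, 582 of 1062 were lost (54.8%, 51.8 to 57.8; background 35.8%) and 247 of 727 were gained (34.0%, 30.5 to 37.5; background 20.2%). From Ep300-deleted to double-deficient cells, 237 of 484 were lost (49.0%, 44.4 to 53.5, background 28.9%) and 168 of 415 gained (40.5%, 35.7 to 45.4, background 18.0%). Near enhancers were closer to these shares than the background, with 52.4% lost and 29.4% gained from WT to Tet2-null cells. From Ep300-deleted to double-deficient cells they gave 46.6% and 32.5%. With lists of equal length, 213 of 481 far enhancers were lost and 146 of 414 gained from WT to Tet2-null cells. From Ep300-deleted to double-deficient cells 110 of 311 were then lost and 216 of 417 gained. At that length all merged autosomal regions also went from more losses than gains (5410 and 2925) to fewer (2998 and 3944) from Ep300-deleted to double-deficient cells, so the turn was not particular to far enhancers. Their shares at equal length were 22.3% lost and 20.4% gained from WT to Tet2-null cells, and 19.6% and 24.2% from Ep300-deleted to double-deficient cells. The 480 far enhancers present in both WT and Tet2-null cells allowed the losses in the 2 backgrounds to be set side by side. Of the 196 that were lost from WT to Ep300-deleted cells, 148 were also lost from Tet2-null to double-deficient cells (75.5%, 68.9 to 81.4). Of the 284 retained in Ep300-deleted cells, 74 were lost in double-deficient cells (26.1%, 21 to 31.6). Near enhancers gave 77.1% and 28.5% and all merged autosomal regions 72.5% and 15.5%, so the overlap was not particular to far enhancers. Weak regions were lost more often in both comparisons, as described above, and the part of strength in this overlap was not tested.

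The density of enhancers dropped steadily with distance from coding starts. Autosomal sequence more than 100 kb from a coding start amounted to 925 Mb, 38.6% of the autosomes, and held 1.57 far enhancers per Mb (1.49 to 1.65), compared with 11.0 per Mb (10.8 to 11.2) at 3 to 100 kb. Density was 6.23 per Mb at 50 to 100 kb, 3.82 at 100 to 150 kb, 2.82 at 150 to 200 kb, 1.39 at 200 to 300 kb, 0.61 at 300 to 500 kb, and 0.09 beyond 500 kb, where 23 far enhancers lay in 248 Mb. In the bins from 100 to 500 kb WT was highest, then Tet2-null, Ep300-deleted, and double-deficient cells, an order that depended on list length, as given above. In far territory as a whole the densities were 1.1, 0.79, 0.52, and 0.45 per Mb. The share lost from WT to Ep300-deleted cells was 63.6% at 100 to 150 kb, 61.1% at 150 to 200 kb, 65.1% at 200 to 300 kb, and 67.9% at 300 to 500 kb, with overlapping intervals. The share lost from Tet2-null to double-deficient cells was 57.6%, 62.0%, 59.3%, and 60.0% in the same bins. At 50 to 100 kb the corresponding shares were close to these, 61.3% and 56.7%. Over all merged autosomal regions, which include promoters, they were 39.9% and 37.0%.

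**Figure D3:**
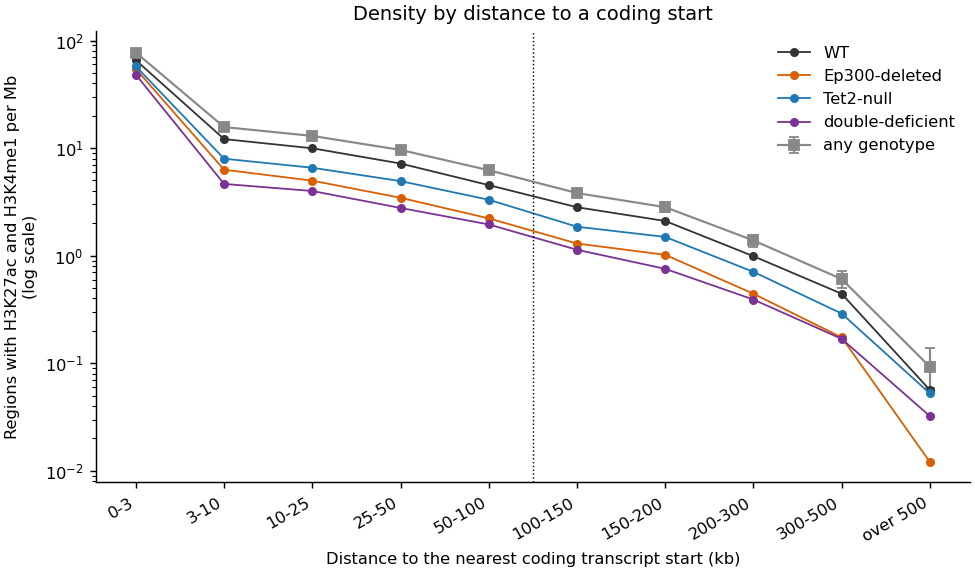
Regions with H3K27ac and H3K4me1 per Mb of autosomal sequence (log axis) by distance to the nearest coding start in kb, for any genotype (squares, with exact 95% Poisson intervals) and for each genotype (circles). The dotted line marks 100 kb, and the density for any genotype runs from 6.23 per Mb at 50 to 100 kb to 0.09 beyond 500 kb.

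Distances of the far enhancers ran from just over 100 kb to 1326 kb, with a median of 152 kb, and 379 (26.2%) were more than 200 kb away. The nearest to the limit from inside was an intronic region of *Ppp1r9a*, 100.02 kb from *Pon1*, and the nearest from outside lay 99.996 kb from *Tcte2*. Chromosome 17 had the highest density of its far territory, 3.59 per Mb (2.94 to 4.33), followed by chromosome 13 with 2.52 and chromosome 10 with 2.45. Chromosome 3 had the lowest, 0.89 per Mb (0.68 to 1.14). Far enhancers were clustered. Joined where close together they formed 859 blocks, of which 566 were single regions and 127 held 3 or more, with 551 far enhancers among them. For 337 far enhancers the next one lay within 1 kb, so a region scored as lost or gained can adjoin a retained one. Neighboring regions of a block cannot be counted as separate events.

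By position, 643 far enhancers were intergenic (44.4%), 462 lay in an intron and 30 in an exon of a coding gene, 304 lay in a noncoding gene or pseudogene, and 10 in an immune receptor gene segment. Inside coding genes 65.1% of WT far enhancers were lost in Ep300-deleted cells, and outside them 63.0%, compared with 39.9% of all merged autosomal regions. Of the 252 within 3 kb of any annotated start, 126 were nearest to a lincRNA start, 26 to an antisense transcript, and 24 to a transcript of the annotation's TEC class, which awaits experimental evidence. Among these 252, loss was 55.6% (48.2 to 62.9) from WT to Ep300-deleted and 43.0% (34.0 to 52.3) from Tet2-null to double-deficient cells, compared with 39.9% and 37.0% of all merged autosomal regions. *Gm15742*, a sense intronic transcript, had 5 such far enhancers, and the lincRNAs *4930519L02Rik* and *Gm45805* had 4 each. Because immune receptor segments have transcript types of their own, 14 far enhancers in their spans were counted as far from coding starts, 7 on chromosome 12, 6 on chromosome 14, and 1 on chromosome 6. Of the 7 on chromosome 12, among *Ighv* segments, 5 were acetylated in WT, 1 in Ep300-deleted, 3 in Tet2-null, and 0 in double-deficient cells.

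Far enhancers fell into 477 gaps between coding starts, of which 209 held 1 and 87 held 5 or more. Those 87 gaps held 767 far enhancers (52.9%), and the 10 fullest held 203. From WT to Ep300-deleted cells more far enhancers were lost than retained in 58 of the 87 gaps, all were lost in 9, and none was lost in 4. From Tet2-null to double-deficient cells the numbers were 44, 17, and 9. Over all merged autosomal regions 39.9% and 37.0% were lost. A far enhancer of all 4 genotypes was present in 63 of the 87. Far enhancers that were alone in their gap were acetylated in all 4 genotypes in 7.66% of cases, those in gaps of 2 to 4 in 13.3%, and those in gaps of 5 or more in 17.1%, compared with 35.3% of all merged autosomal regions.

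**Figure D4:**
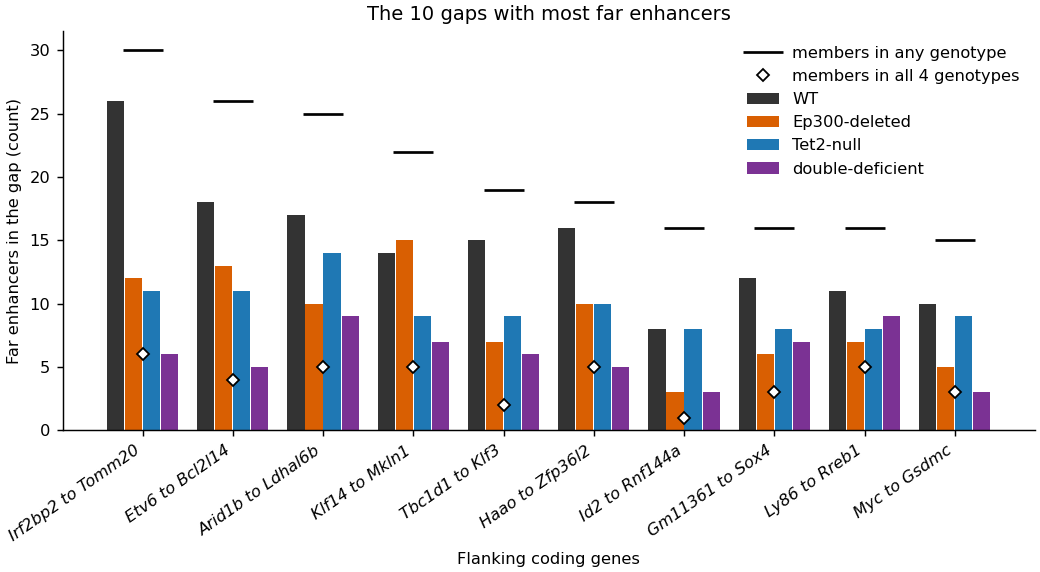
Number of far enhancers in the 10 gaps with the most, by genotype (bars), in any genotype (black lines), and in all 4 genotypes (diamonds), named by the coding genes on each side. WT has the most in 8 of the gaps, Ep300-deleted cells have 15 against 14 in WT between *Klf14* and *Mkln1* (12 against 14 without regions whose strongest peak has a *q* above 0.05, a choice that also leaves WT with 8 against 9 in Tet2-null cells between *Myc* and *Gsdmc*), and WT and Tet2-null cells have 8 each between *Id2* and *Rnf144a*.

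The gap with the most far enhancers lies on chromosome 8 between *Irf2bp2*, which encodes a transcriptional cofactor of IRF2, and *Tomm20*, a mitochondrial import receptor. Its 30 far enhancers span 144 kb, with 26 in WT, 12 in Ep300-deleted, 11 in Tet2-null, and 6 in double-deficient cells. From WT to Ep300-deleted cells 15 of 26 were lost and 1 was gained, and from Tet2-null to double-deficient cells 5 of 11 were lost and 0 gained. All 6 of the double-deficient cells were present in the other 3 genotypes. The strongest, at chr8:126831627-126834118, had a fold of 19.5 in WT, 13.9 in Ep300-deleted, 8.25 in Tet2-null, and 11.9 in double-deficient cells. A region of 4060 bp at chr8:126701600-126705659, the widest of all far enhancers, was at 18.6, 12.9, 8.42, and 6.07. Both flanking starts were acetylated in all 4 genotypes.

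The next gap, on chromosome 6, contained 26 far enhancers, all inside *Etv6*, an ETS family repressor that adult hematopoietic stem cells need. WT cells held 18, Ep300-deleted cells 13, Tet2-null cells 11, and double-deficient cells 5. None carried H3K4me3. The strongest, at chr6:134186490-134187917, was at a fold of 12.1 in WT and 11.4 in Ep300-deleted cells but 3.17 in Tet2-null cells, and had no peak in double-deficient cells. The *Etv6* start was acetylated in all 4 genotypes. All 25 far enhancers of the gap between *Arid1b* and *Ldhal6b* lie inside *Arid1b*, which encodes a subunit of BAF chromatin remodeling complexes, with 17 in WT, 10 in Ep300-deleted, 14 in Tet2-null, and 9 in double-deficient cells. The strongest far enhancer of the WT list is among them, at chr17:5189387-5190669, with folds of 37.9, 29.7, 27.9, and 24.8 and H3K4me3 in all 4 genotypes.

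The gap between *Klf14* and *Mkln1* contains the start of *Lncpint*, a long noncoding RNA gene that p53 induces. Of its 22 far enhancers, WT cells held 14, Ep300-deleted cells 15, Tet2-null cells 9, and double-deficient cells 7, with 8 gained and 7 lost from WT to Ep300-deleted cells. The strongest peak had a *q* above 0.05 at 3 of the 15 and at none of the other genotypes' far enhancers here. Without these 3, a choice made after seeing the data, Ep300-deleted cells held 12, with 6 gained and 8 lost, so which of WT and Ep300-deleted cells held more depended on them. Its strongest region, at chr6:31124883-31127390, was at a fold of 23.9 in WT, 35.3 in Ep300-deleted, 18.4 in Tet2-null, and 23.4 in double-deficient cells. Of the 5 strongest far enhancers gained in Ep300-deleted cells 2 were here, one at chr6:31176533-31176862 with a fold of 7.53 in Ep300-deleted and 7.38 in double-deficient cells and no peak in WT or Tet2-null cells. The other, at chr6:31215932-31216354, was at 6.50 in Ep300-deleted and 5.61 in double-deficient cells, next to a start of *Lncpint*. H3K4me3 overlapped 13 of the 22.

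On chromosome 17 between *Haao*, of the kynurenine pathway, and *Zfp36l2*, which destabilizes AU-rich mRNA, 18 far enhancers lay within 103.3 kb. WT cells held 16, Ep300-deleted and Tet2-null cells 10 each, and double-deficient cells 5. The strongest, at chr17:83956024-83957399, was at a fold of 16.3 in WT and 17.9 in Tet2-null cells and at 2.97 in Ep300-deleted and 4.75 in double-deficient cells. The gap from *Tbc1d1* to *Klf3*, a Krüppel-like repressor, held 19, of which 15 were in WT, 7 in Ep300-deleted, 9 in Tet2-null, and 6 in double-deficient cells. The gap from *Id2*, an inhibitor of helix-loop-helix factors, to *Rnf144a* held 16, with 8 in WT and in Tet2-null cells and 3 in each genotype without p300. From Tet2-null to double-deficient cells 7 of the 8 were lost and 2 gained.

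**Figure D5:**
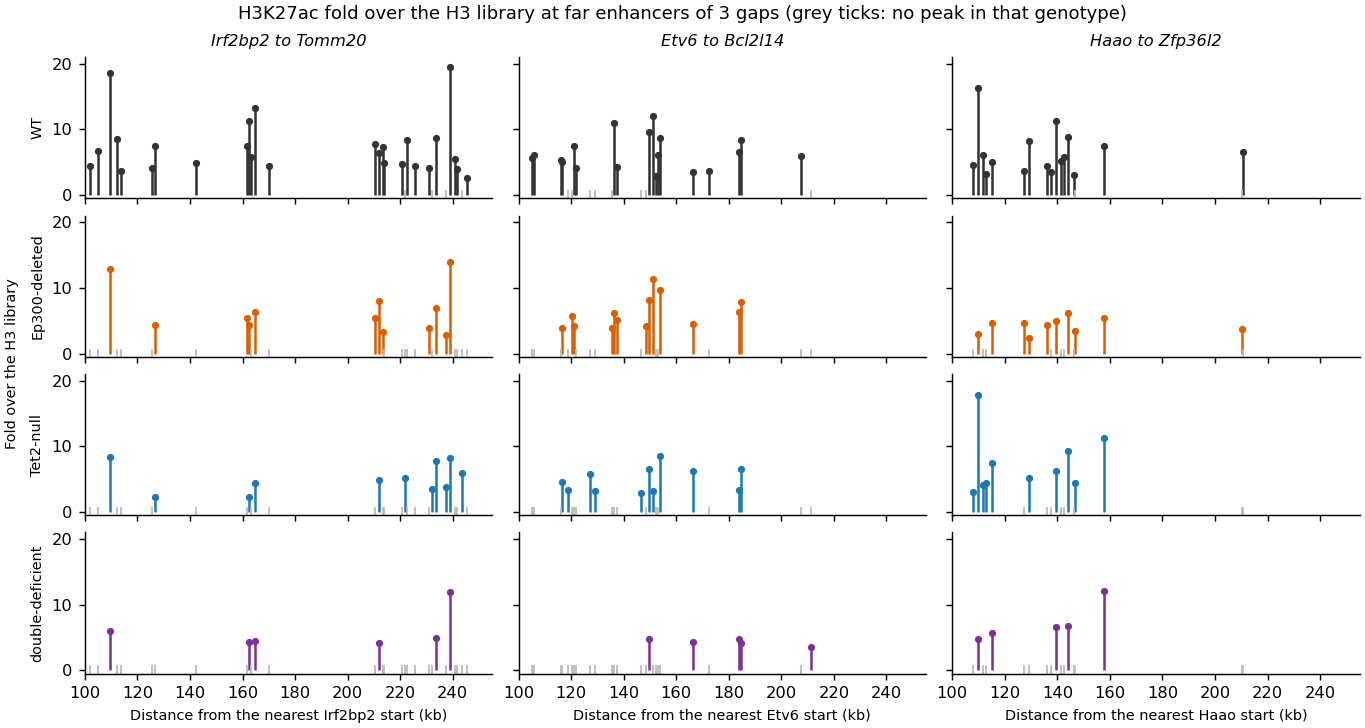
H3K27ac fold over the H3 library (vertical axis, 0 to 20) at each far enhancer of 3 gaps, by distance in kb from the nearest start of *Irf2bp2*, *Etv6*, or *Haao* and by genotype (rows). Grey ticks mark far enhancers with no peak in that genotype, which are most numerous in double-deficient cells in the *Irf2bp2* gap, with 6 of 30 present.

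Between *Gm11361* and *Sox4*, a factor of progenitors and of leukemia, 16 far enhancers reached 535 kb from the *Sox4* start, with 12 in WT, 6 in Ep300-deleted, 8 in Tet2-null, and 7 in double-deficient cells. The strongest, at chr13:28512537-28513080, was at 4.57 in WT, 7.15 in Ep300-deleted, 9.78 in Tet2-null, and 7.93 in double-deficient cells. Between *Ly86*, which encodes the partner MD-1 of the receptor RP105, and *Rreb1* there were 16, of which 11 were in WT, 7 in Ep300-deleted, 8 in Tet2-null, and 9 in double-deficient cells. From Tet2-null to double-deficient cells 1 of 8 was lost and 2 were gained. The strongest, at chr13:37481934-37484403, was at 9.79, 6.24, 19.4, and 7.44.

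The 15 far enhancers between *Myc*, which drives progenitor proliferation, and *Gsdmc* fell into a proximal and a distal group. In the proximal group 5 regions lay 112 to 234 kb downstream of *Myc*, and none of them was in all 4 genotypes or in double-deficient cells. The other 10 lay 1629 to 1718 kb downstream, where a cluster of blood enhancers of *Myc* is known. The 3 of all 4 genotypes were in this distal group. At chr15:63703927-63704929 the fold was 14.4 in WT, 5.12 in Ep300-deleted, 17.3 in Tet2-null, and 12.6 in double-deficient cells. At chr15:63657576-63658703 it was 9.32, 5.80, 7.79, and 6.07, and at chr15:63648510-63649661 it was 8.37, 4.90, 9.40, and 4.4. Over the gap, 6 of 10 WT far enhancers were lost in Ep300-deleted cells and 6 of 9 of Tet2-null cells in double-deficient cells. Some of the lost regions directly adjoin one of these retained regions. Examples are chr15:63658877-63659439 and chr15:63705334-63705745, found in WT alone, and chr15:63648027-63648405, found in Tet2-null cells alone. Whether such neighbors are separate enhancers or edges of 1 enhancer was not tested. Without regions whose strongest peak had a *q* above 0.05, WT cells held 8 and Tet2-null cells 9, and 5 of the 8 were lost. The *Myc* start was acetylated in all 4 genotypes.

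Genes of 5 lists of blood regulators were looked up among the flanking genes, which are 878 of 20733 autosomal coding genes (4.23%). Among all far enhancers 63.7% were lost from WT to Ep300-deleted and 59.3% from Tet2-null to double-deficient cells, and among all merged autosomal regions 39.9% and 37.0%. Of 21 stem and progenitor factors, 8 flanked 92 far enhancers, of which WT cells held 66, Ep300-deleted cells 41, Tet2-null cells 42, and double-deficient cells 25. Loss was 34 of 66 from WT to Ep300-deleted cells (51.5%) and 23 of 42 from Tet2-null to double-deficient cells (54.8%). *Runx1*, needed for blood stem cells to form, had 10 far enhancers, 202 to 389 kb from its start, all in WT, with 4 in Ep300-deleted, 4 in Tet2-null, and 1 in double-deficient cells. *Runx2*, a related factor, had 12, with 10, 8, 6, and 6 in the same order. The strongest *Runx2* region, at chr17:44613555-44614699, was at a fold of 16.0, 11.5, 19.5, and 7.18. *Meis1*, a homeobox cofactor, had 4, of which 1 was in WT, 2 in Ep300-deleted, 1 in Tet2-null, and 1 in double-deficient cells. *Mycn* had 4, with 1, 1, 3, and 2 in the same order, and *Zfpm1* had 3, with 2, 2, 0, and 0.

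Of 19 myeloid genes, 4 flanked 31 far enhancers, with 12 of 19 lost from WT to Ep300-deleted cells (63.2%) and 11 of 17 from Tet2-null to double-deficient cells (64.7%). These genes were *Id2*, *Zeb2*, *Klf4*, and *Cebpb*. *Zeb2*, a repressor that shapes monocyte and dendritic cell fate, had 8. Its strongest, at chr2:45279958-45280782, was at 13.7 in WT, 5.82 in Ep300-deleted, 6.15 in Tet2-null, and 6.05 in double-deficient cells. The strongest near *Klf4* lay 689 kb from the gene and was at 6.56 in WT, 7.72 in Ep300-deleted, 4.84 in Tet2-null, and 13.1 in double-deficient cells.

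Of 21 lymphoid genes, 9 flanked 50 far enhancers, with 26 of 40 lost from WT to Ep300-deleted cells (65.0%) and 14 of 22 from Tet2-null to double-deficient cells (63.6%). *Bcl6*, a repressor of germinal center B cells, had 7 far enhancers, of which 6 were in WT and 5 in Tet2-null cells and 0 in Ep300-deleted and in double-deficient cells. *Tcf4*, an E protein, had 4, all in WT and in Ep300-deleted cells, 1 in Tet2-null, and 0 in double-deficient cells. *Cxcr4*, the receptor that holds stem cells in the marrow, had 8, all in WT, with 4, 4, and 2 in the others, and its strongest was at 15.1 in WT, 6.84 in Ep300-deleted, and 7.44 in Tet2-null cells with no peak in double-deficient cells. *Ets1* had 5, all in WT, with 2 in Ep300-deleted, 2 in Tet2-null, and 3 in double-deficient cells. *Ebf1* had 1, in Tet2-null cells.

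Of 12 erythroid, megakaryocyte, and mast cell genes, 2 flanked 15 far enhancers, with 8 of 14 lost from WT to Ep300-deleted cells (57.1%) and 7 of 10 from Tet2-null to double-deficient cells. *Kit*, the receptor of stem cell factor, had 14, at 103.3 to 260 kb, with 13 in WT, 6 in Ep300-deleted, 9 in Tet2-null, and 3 in double-deficient cells. Its strongest, at chr5:75729954-75732180, was at 8.93, 8.75, 16.2, and 7.92, so it was present in every list. Of 12 growth and survival genes, 6 flanked 28 far enhancers, with 12 of 21 lost from WT to Ep300-deleted cells (57.1%) and 12 of 16 from Tet2-null to double-deficient cells. *Bcl2*, which blocks apoptosis, had 5, all in WT, with 0 in Ep300-deleted, 2 in Tet2-null, and 1 in double-deficient cells. *Ccnd2*, a cyclin of the G1 phase, had 5, with 5 in WT, 3 in Ep300-deleted, 3 in Tet2-null, and 0 in double-deficient cells.

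Far enhancers were flanked by 878 coding genes, and a start was acetylated in 477 of these in WT (54.3%), 457 in Ep300-deleted (52.1%), 468 in Tet2-null (53.3%), and 440 in double-deficient cells (50.1%). Over all 20733 autosomal coding genes the shares were 47.4%, 45.1%, 46.4%, and 43.2% in the same order. Starts lost H3K27ac in 40 of 477 genes from WT to Ep300-deleted cells (8.39%, 6.06 to 11.2) and in 48 of 468 from Tet2-null to double-deficient cells (10.3%, 7.66 to 13.4). Over all autosomal coding genes the shares lost were 7.57% and 10.1%. Of the 677 far enhancers lost from WT to Ep300-deleted cells, 604 had an acetylated flanking start in WT cells (89.2%) and 586 in Ep300-deleted cells (86.6%). Of the 385 retained, 355 (92.2%) and 351 (91.2%) did. Of the 29 genes of the 5 lists that flank a far enhancer, 24 had an acetylated start in all 4 genotypes. Whether a far enhancer acts on either flanking gene was not measured.

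The strongest far enhancers of WT cells were mostly retained. Of the 10 with the highest fold in WT, 9 were present in all 4 genotypes. The exception, in an intron of *Tbc1d5* at chr17:50993810-50994440, was at 24.7 in WT, 11.6 in Ep300-deleted, and 14.1 in Tet2-null cells and absent from double-deficient cells. Second to the *Arid1b* region was one next to the lincRNA *Gm35035* near *Dusp6*, at chr10:99460754-99462029, with folds of 29.0, 23.6, 10.3, and 7.05. A region at the lincRNA *Gm14005* between *Bcl2l11* and *Spdye4c*, at chr2:128427383-128429762, was at 21.2, 9.20, 20.8, and 15.7. One in an exon of *Susd1*, at chr4:59330923-59332460, was at 24.1, 8.44, 14.1, and 12.9. H3K4me3 was present at 9 of the 10 in WT cells. Several lay at a start of another transcript type, 0.524 kb away at *Gm35035*, 0.562 kb at *Susd1*, and 0 kb at *Gm14005*. The region at chr7:39655425-39656316 carried H3K4me1 in Ep300-deleted cells only. Such regions cannot be told from promoters of other transcripts by these marks.

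The strongest WT far enhancer lost in Ep300-deleted cells lay between *Tent5a* and *Ibtk* at chr9:85496582-85497088, with a fold of 14.6 in WT, 17.97 in Tet2-null, and 6.49 in double-deficient cells. The next, just beyond it on chromosome 9, was at 14.3 in WT and 5.63 in Tet2-null cells. The others of the 5 lay in *Dtd1* (13.9 in WT), in *Syn3* (13.7), and between *Chd7*, the gene of a chromatin remodeler, and *Clvs1* (12.9). None of the 5 carried H3K4me3 in any genotype. From Tet2-null to double-deficient cells the strongest lost was between *Ercc6l2* and *Hsd17b3* at chr13:63916965-63917623, at 14.4 in Tet2-null and 8.69 in WT cells and absent from both genotypes without p300. It was followed by the *Tbc1d5* region and by regions near *Tab2* (12.3), between *Gvin1* and *Olfr693* (12.3), and near *Ctnnb1* (12.02).

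The 99 far enhancers gained in Ep300-deleted cells had a median fold of 4.03, and the 119 gained in double-deficient cells 4.68, each within its own list. The 5 strongest gained in Ep300-deleted cells had folds of 5.80 to 7.53, and the 5 strongest gained in double-deficient cells had 8.51 to 10.8. The highest of the latter, at chr4:83888565-83888875 in the lincRNA *Gm11415*, was found in double-deficient cells alone, with H3K4me3 in all 4 genotypes. The region between *Mbnl1* and *P2ry1* was at 9.87 in double-deficient, 6.92 in WT, and 5.37 in Ep300-deleted cells, and absent from Tet2-null cells only. A region near *Ets1* at chr9:32906101-32906827 was at 8.83 in double-deficient and 5.47 in WT cells. Thus 4 of these 5 were present in WT cells.

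The farthest region, 1326 kb from *Zeb2* and 2370 kb from *Acvr2a* at chr2:46443757-46443998, was found in WT cells alone with a fold of 4.60, and carried H3K4me1 in all 4 genotypes. The 10 farthest lay at 622 to 1326 kb, and 2 of them were among *Ighv* segments. None of the 10 was in all 4 genotypes, and one in an intron of *Sugct*, at chr13:17028121-17028587, had folds of 7.75 in Tet2-null and 9.35 in double-deficient cells.

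Median GC content of the summit windows was 51.2% for far and 51.7% for near enhancers. Far enhancers with 10 or more CpG in the window numbered 39 (2.69%), compared with 3.07% of near enhancers and 26.8% of all merged autosomal regions. They made up 23 of 385 retained from WT to Ep300-deleted cells (5.97%) and 5 of 677 lost (0.739%), beside 6.10% and 1.28% of near enhancers, and 36 of the 39 were among far enhancers with H3K4me3. Windows with over 50% of their letters masked as repeats made up 4.28% of far and 8.15% of near enhancers. Any of the 9 strings was found in 40.3% of far enhancers retained from WT to Ep300-deleted cells (35.3 to 45.3) and 42.8% of those lost (39.1 to 46.7). Those gained in Ep300-deleted cells had one in 51.5% of cases (41.3 to 61.7), and all merged autosomal regions in 38.9%. Any string was found in 36.8% of far enhancers retained from Tet2-null to double-deficient cells (31.3 to 42.6), 45.9% of those lost (41.2 to 50.8), and 53.8% of those gained (44.4 to 63.0). Among near enhancers of the same comparison the shares with any string were 44.0% for retained and 43.9% for lost regions.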

How the data were processed

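Chromatin of Lin- bone marrow cells was precipitated for H3K27ac, H3K4me1, H3K4me3, and H3, with 1 library per genotype and mark. The authors used cutadapt 1.15 for trimming, BWA 0.7.13 for alignment (mm10), Picard for duplicates, and MACS2 2.1.1.20160309 for peak calls against the H3 library. The deposited peak lists hold, per peak, a fold enrichment over H3, the −log10 *P* and −log10 *q* values, and a display score that was not used. They hold no read counts, so depth and its precision are unknown, and fold values are not scaled to the Drosophila spike-in. Some deposited peaks have a *q* above the stated limit of 0.05, which none of the main results removed. Of 20 samples, 8 (H3 and H3K27me3) have no list used here.

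Overlapping or touching H3K27ac peaks of the 4 lists were merged. Presence required an overlap of 1 bp, and distance was measured from the region edge to the starts of GENCODE M21 transcripts of type protein_coding. Near enhancers were regions with H3K4me1 at 3 to 100 kb. A promoter was 3 kb either side of a start, and blocks joined regions up to 12.5 kb apart. Named regions were the 10 farthest, the 10 strongest in WT, the 5 strongest lost and gained in each p300 comparison, the strongest of the 10 fullest gaps and of each listed gene, and the nearest to the limit of 100 kb. Some of the genes these rules select are not reported here. Summit windows of 201 bases were read from the RefSeq FASTA of GRCm38.p6, the assembly of mm10. The members and the gene lists were chosen with earlier results of these data known. Calculations used Python 3.11.15, numpy 2.4.6, pandas 2.3.3, scipy 1.17.1, matplotlib 3.10.9, and bedtools 2.31.1, and the interval code gave the known answer in 5 of 5 checks on simulated intervals. With 1 library per group no test between genotypes was made. Alternatives changed the distance, the starts used, merging, overlap, peak strength, list length, and the H3K4me1, H3K4me3, and start filters. On chromosome X, 16 regions met the same criteria and were left out.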

Additional observations from a re-analysis of the deposited data

Results flagged for a closer look

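The median fold over all far enhancers of a list was lower without p300 in the WT background and higher in the Tet2-null background. The median fold was 5.47 in WT and 4.70 in Ep300-deleted cells, but 5.28 in Tet2-null and 5.71 in double-deficient cells. Over all merged autosomal regions the medians were 6.76, 6.22, 6.67, and 7.11 in the same order, and over near enhancers 5.47, 4.67, 5.23, and 5.6, so the pattern was not particular to far enhancers. At far enhancers retained in both lists of a comparison the fold was lower without p300 in each background, 7.53 and 5.12 and, in the Tet2-null background, 7.11 and 6.07. The median width of the peaks was 402 bp in WT and 298 bp in Ep300-deleted cells, and 394 bp in Tet2-null and 450 bp in double-deficient cells. The median percentile of far enhancers within their own list was 36.1 in WT and 33.9 in Ep300-deleted cells, and 35.8 in Tet2-null and 36.3 in double-deficient cells. The difference between backgrounds was not tested, since each value comes from 1 library. The Ep300-deleted list also held the largest share of peaks with a *q* above 0.05, 7.17% of all its H3K27ac peaks compared with 0.780% to 0.900% in the other 3 lists, and the part of this in the medians was not tested.

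A further 288 autosomal regions more than 100 kb from coding starts had H3K27ac but no H3K4me1 in any list. WT cells held 126, Ep300-deleted cells 38, Tet2-null cells 143, and double-deficient cells 65 of them, so Tet2-null cells held the most, unlike among far enhancers. Of these regions, 84.4% were in 1 list only, compared with 37.9% of all merged autosomal regions. From WT to Ep300-deleted cells 102 of 126 were lost (81.0%; 39.9% of all merged autosomal regions), and from Tet2-null to double-deficient cells 120 of 143 (83.9%; 37.0%).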

How the results depend on the processing

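No paired analysis was possible because each genotype and mark had 1 library. Of 50 values from 10 alternatives, 27 stayed within 1.5 times the main count or within the 95% interval of the main share or density. The number of far enhancers was 3499 beyond 50 kb, 379 beyond 200 kb, 914 with −log10 *q* of at least 5, and 798 with lists of equal length. Loss from WT to Ep300-deleted cells was 66.7% beyond 200 kb, 60.6% with peaks up to 500 bp apart merged, 73.1% at the *q* limit, 50.7% with equal lists, and 73.5% without H3K4me3. Loss from Tet2-null to double-deficient cells was 55.3% at the *q* limit, 39.6% with equal lists, and 74.1% without H3K4me3. The share in all 4 genotypes was 17.2% with merging, 19.5% with equal lists, and 6.96% without H3K4me3. Density per Mb was 2.79 beyond 50 kb, 0.620 beyond 200 kb, 1.31 with all transcripts of coding genes, 1.27 with merging, 0.988 at the *q* limit, 0.862 with equal lists, 1.29 without regions near any start, and 1.09 without H3K4me3. Fewer peaks or more territory enter by construction, and other causes were not tested. Far enhancers were lost at a higher share than near ones in all alternatives but 1, loss from Tet2-null to double-deficient cells without H3K4me3 (74.1% and 74.2%). With equal lists that comparison gave 39.6% and 39.4%, and without H3K4me3 the WT comparison gave 73.5% and 73.2%. The alternatives recut the same lists, and the outer limit of near enhancers moved with the distance. How many of them agree is therefore no independent support for a difference between far and near enhancers. Leaving out regions whose strongest peak had a *q* above 0.05, an alternative chosen after seeing the data, took Ep300-deleted cells from 15 to 12 between *Klf14* and *Mkln1*, below the 14 of WT cells, and from 12 to 10 between *Irf2bp2* and *Tomm20*, below the 11 of Tet2-null cells. It took WT cells from 10 to 8 between *Myc* and *Gsdmc*, below the 9 of Tet2-null cells. Ep300-deleted cells also went from 7 to 5 between *Tbc1d1* and *Klf3* and from 3 to 2 between *Id2* and *Rnf144a*. These fell below the 6 and 3 of double-deficient cells. They went from 10 to 9 between *Haao* and *Zfp36l2*, below the 10 of Tet2-null cells, and between *Arid1b* and *Ldhal6b*, level with the 9 of double-deficient cells. Depth, which the lists do not give, limits the detection of weak peaks.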
